A study of Mus musculus with 2 samples.

Results

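Liver LSM cells were described here for the 93 cells whose libraries held both Ly6a and Itgam transcripts, the mRNAs of the surface proteins Sca-1 and Mac-1 (CD11b) on which the LSM gate was sorted. A cell counted as double-positive when it had at least 500 detected genes, at most 10% mitochondrial transcripts, and at least 1 unique molecular identifier (UMI, 1 counted transcript molecule) of each of the 2 genes. These were 93 of 3065 LSM cells, or 3.03% (95% interval 2.46 to 3.70), and of 4313 cells in the whole series. The other LSM cells formed 3 classes for comparison: 819 with Ly6a only, 352 with Itgam only and 1801 with neither. The LSM gate took CD45+ lineage-negative Sca-1+ Mac-1+ cells, and the second gate took CD45+ lineage-negative CD122+ CD49a+ cells. Both came from the liver of C57BL/6 mice aged 7 to 10 weeks, with no treatment given in the labels. Each gate gave 1 library, and the number of mice behind it is not stated in the labels. With 1 library per gate nothing below has a replicate check or a test. All intervals are 95% intervals that cover counting error only, and cells of 1 library are not replicates.

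Ly6a encodes Sca-1, a small glycolipid-anchored protein of the Ly6 family that marks mouse hematopoietic stem and multipotent progenitor cells and is also induced by interferons in mature leukocytes. Itgam encodes the integrin alpha M chain, which pairs with the beta 2 chain (Itgb2) to form Mac-1, a receptor for complement fragments and for the adhesion molecule ICAM-1 on monocytes, macrophages, neutrophils, some dendritic cells (DCs) and NK cells. In GENCODE release M21 on GRCm38, Ly6a lies on the minus strand of chromosome 15 from 74994877 to 74998031, and Itgam on the plus strand of chromosome 7 from 128062640 to 128118491. Surface protein was sorted and mRNA was counted, so a sorted cell with 0 UMIs of a transcript is not a cell without the protein. Because the members were chosen by Ly6a and Itgam UMIs, the levels of these 2 genes are given as a description.

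The double-positive cells were slightly deeper than the other classes. They had a median of 6033 UMIs (1751 to 17545), against 5298 in Ly6a-only cells, 5258.5 in Itgam-only cells and 4941 in cells with neither. Their median number of detected genes was 1659, against 1644, 1510.5 and 1511 in the same order, and their median mitochondrial share was 1.29%, against 1.72%, 1.24% and 1.32%. Ptprc, which encodes CD45, had a UMI in 75 of the 93 double-positive cells (80.6%), against 73.1% of Ly6a-only, 72.4% of Itgam-only and 71.2% of neither cells of matched depth. Matched depth means that each class was weighted to the spread of the double-positive cells over 6 bins of total UMIs. Of the 68 LSM barcodes that failed the filters, 0 had both transcripts. The 2 libraries shared 3 barcodes, and 0 of them were double-positive.

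Most members met the rule by a single molecule. Ly6a had a lowest value of 1, a median of 2 and a highest value of 18 UMIs in the double-positive cells, and Itgam had 1, 1 and 4 UMIs. Exactly 1 UMI of each gene was counted in 36 of the 93 cells, 1 UMI of Ly6a in 45, 1 UMI of Itgam in 76, and at least 2 of each in 8. At the other end, 14 members had at least 5 UMIs of Ly6a and 17 had at least 2 of Itgam. Ly6a averaged 2.82 UMIs per double-positive cell, against 3.61 per Ly6a-only cell of matched depth, in which the highest value was 48. Itgam averaged 1.23 UMIs per double-positive cell, against 1.35 per Itgam-only cell of matched depth, in which the highest value was 5. Just outside the rule stood 334 Ly6a-only cells with 1 UMI of Ly6a and 269 Itgam-only cells with 1 UMI of Itgam. In all, 912 LSM cells held 3135 Ly6a UMIs and 445 held 580 Itgam UMIs, so 10.2% of cells with Ly6a and 20.9% of cells with Itgam were double-positive. At this depth an undetected transcript cannot be told from an unexpressed one.

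Fewer cells held both transcripts than the product of the shares gave. Within bins of total UMIs the product of the shares with Ly6a and with Itgam gave 132.2 expected double-positive cells, and the observed 93 were 0.703 of it (0.568 to 0.862). The common odds ratio over the bins, the odds of Itgam in cells with Ly6a over those in cells without, was 0.572. Without bins the expected number was 132.4, so depth moved it little. Across the bins Ly6a was detected in 11.0% of cells under 2000 UMIs, 24.7% from 2000 to under 4000, 32.2% from 4000 to under 6000, 31.4% from 6000 to under 8000, 38.9% from 8000 to under 12000 and 57.6% at 12000 and over. Itgam showed no such order, with 11.0%, 17.1%, 12.6%, 16.9%, 13.6% and 11.9% of cells in the same bins. The double-positive share was 0.394%, 2.87%, 2.34%, 4.16%, 4.75% and 6.78%.

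In number of cells, the gap between observed and expected lay mainly in the bins from 2000 to under 8000 UMIs, which held most LSM cells. The intervals of the ratios overlapped between bins. From 4000 to under 6000 UMIs there were 25 double-positive cells against 43.2 expected, a ratio of 0.579 (0.374 to 0.854), and Itgam was found in 7.27% of cells with Ly6a, against 15.1% of cells without. Under 2000 UMIs there was 1 against 3.09 expected, a ratio of 0.324 (0.008 to 1.81). From 2000 to under 4000 UMIs there were 20 against 29.4 expected, and from 6000 to under 8000 there were 28 against 35.7. From 8000 to under 12000 UMIs the 15 observed cells stood against 16.7 expected, and at 12000 and over the 4 observed cells against 4.03. The observed number was below the expected one in each of the 6 bins, and only the interval from 4000 to under 6000 UMIs lay below 1.

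**Figure D1:**
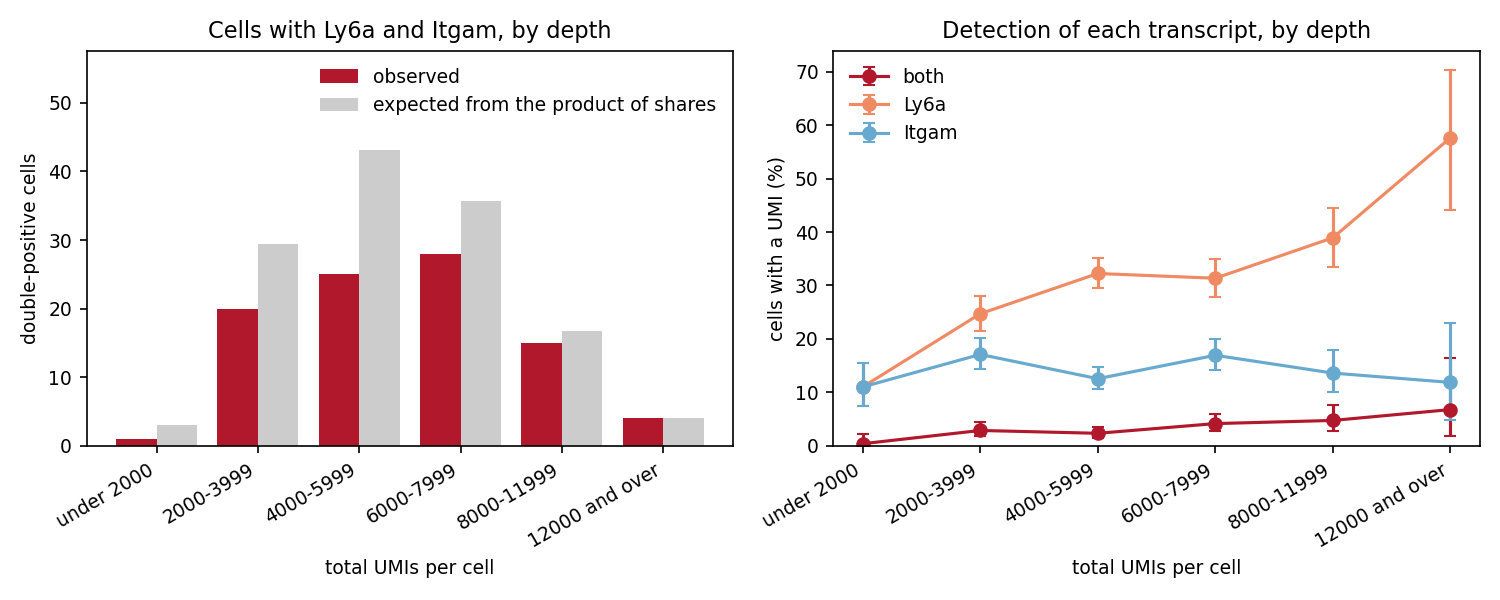
Left, the number of LSM cells with both transcripts (red) and the number expected from the product of the 2 shares (grey) in 6 bins of total UMIs per cell. Right, the percent of cells in each bin with a UMI of both, of Ly6a or of Itgam, with exact 95% intervals for counting error; Ly6a reached 57.6% in the deepest bin, and Itgam stayed between 11.0% and 17.1%.

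The gap was smaller once cells were compared within clusters. The LSM cells were clustered without Ly6a and Itgam into 17 clusters, and within clusters and UMI bins together 100.6 double-positive cells were expected, so that the observed 93 were 0.925 of it (0.746 to 1.13, odds ratio 0.861). Within clusters alone the ratio was 0.946 (0.763 to 1.16). These 2 intervals include 1. With coarser clusters (Leiden resolution 0.3) 114.2 were expected, a ratio of 0.814 (0.657 to 0.998) whose interval lay below 1, and with finer ones (resolution 1) the ratio was 0.892 (0.720 to 1.09). The clusters differed in which of the 2 transcripts they held. Itgam was most frequent in cluster 4, a monocyte-like cluster led by Ace, Fabp4 and Cd300e, with 32.4% of 327 cells, where Ly6a was found in 12.5%. Cluster 1, led by the C-type lectin genes Cd209a, Clec4b1 and Clec10a, had Itgam in 30.1% and Ly6a in 16.3% of 589 cells. Ly6a was most frequent in cluster 5, which was plasmacytoid DC-like, with 71.8% of 163 cells, where Itgam was found in 1.23%. Cluster 3, led by Wfdc18 and Prss2 and with 5 of 7 lymphoid progenitor markers raised, had Ly6a in 45.2% and Itgam in 8.84% of 509 cells.

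Clusters with few cells of either transcript were set beside these shares. The mast cell and basophil-like cluster 9 had Ly6a in 0 of 124 cells, which allows a share of up to 2.42%, at a median of 1881 UMIs. Cluster 5 had Itgam in 2 of 163 cells (1.23%) at a median of 4083 UMIs. Both shares were below those of the clusters that held most of the double-positive cells. Cluster 1 had a median of 5753 UMIs, cluster 3 of 4652 and cluster 4 of 2347. The 2 cells of cluster 5 with Itgam were both double-positive. Free RNA in droplets was not measured, and its part in the double-positive cells was not tested.

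**Figure D2:**
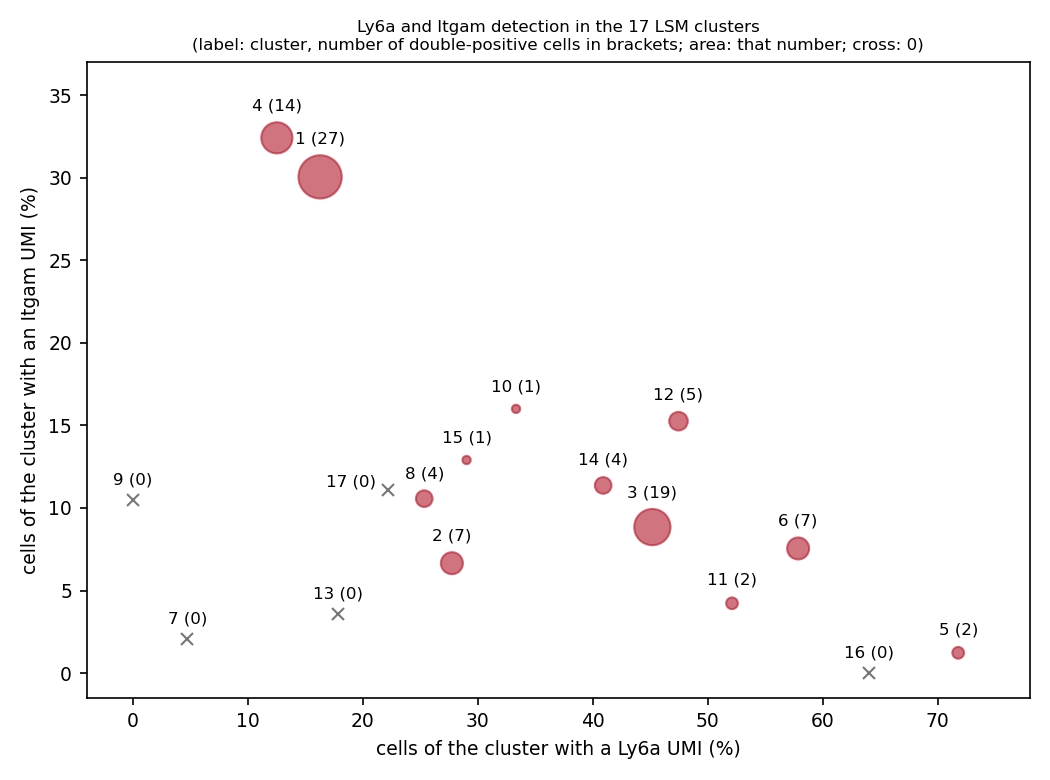
Each of the 17 LSM clusters is placed by the percent of its cells with a Ly6a UMI (horizontal) and with an Itgam UMI (vertical); circle area is proportional to its number of double-positive cells, given in brackets after the cluster number, and crosses mark clusters with 0. Clusters 1 and 4 lie highest for Itgam (30.1% and 32.4%), cluster 5 lies farthest right for Ly6a (71.8%), and cluster 3 lies between them with 19 double-positive cells.

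The double-positive cells were spread over 12 of the 17 clusters, and 60 of them (64.5%) lay in clusters 1, 3 and 4. Cluster 1 held 27 double-positive cells, 29.0% of all (20.1 to 39.4), against 8.79% of Ly6a-only cells, 47.1% of Itgam-only cells and 19.7% of cells with neither, each at matched depth. Cluster 3 held 19, or 20.4% (12.8 to 30.1), against 23.3%, 6.43% and 13.2% in the same order. Cluster 4 held 14, or 15.1% (8.48 to 23.97), against 2.91%, 17.01% and 7.21%. In clusters 1 and 4 the interval of the double-positive share lay above the Ly6a-only value, and in cluster 3 it lay above the Itgam-only value. The classes were chosen by these 2 transcripts, so clusters rich in Itgam or in Ly6a show this order without any excess of double-positive cells. From the shares within each cluster and its UMI bins, 30.4, 20.7 and 13.3 double-positive cells were expected in clusters 1, 3 and 4, against the 27, 19 and 14 found. The 3 clusters are given by number where the marker rule gave no name: cluster 1 had 4 of 12 monocyte markers raised (Ccr2, Ms4a6c, Cx3cr1 and Lyz2) beside the DC genes that led it.

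The remaining 33 double-positive cells were thinly spread. Cluster 2, led by Ifi205, Rab7b and Snx22 and with the DC genes Xcr1, Clec9a, Irf8 and Batf3 raised, held 7 (7.53%, 3.08 to 14.9), against 20.7% of Ly6a-only, 12.4% of Itgam-only and 28.6% of neither cells. Cluster 6, led by Ccl17, Gbp2 and Cxcl9, held 7 as well, against 10.6%, 1.77% and 3.84%. The cluster led by proliferation genes such as Birc5 (cluster 12) held 5 and was the deepest, with a median of 9625 UMIs; 8.47% of its cells were double-positive. The Kupffer cell and macrophage-like cluster 14 held 4 among only 44 cells, 9.09% (2.53 to 21.7). The numbers expected within cluster and UMI bins were 10.2 in cluster 2, 7.15 in cluster 6, 4.24 in cluster 12 and 2.42 in cluster 14. The plasmacytoid DC-like cluster 8 held 4, cluster 5 held 2, the stem and multipotent progenitor-like cluster 11 held 2, and the plasma cell-like cluster 10 and the unnamed cluster 15 held 1 each. None were found among the 370 cells of clusters 7 (mature DC-like), 9, 13 and 16 (both T cell-like) and 17. From the shares within each cluster and its UMI bins, only 0.097, 0, 0.349, 0 and 0.286 were expected there in the same order. In the T cell-like cluster 16, Ly6a was found in 64.0% of 25 cells and Itgam in 0, a limit of 12%.

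**Figure D3:**
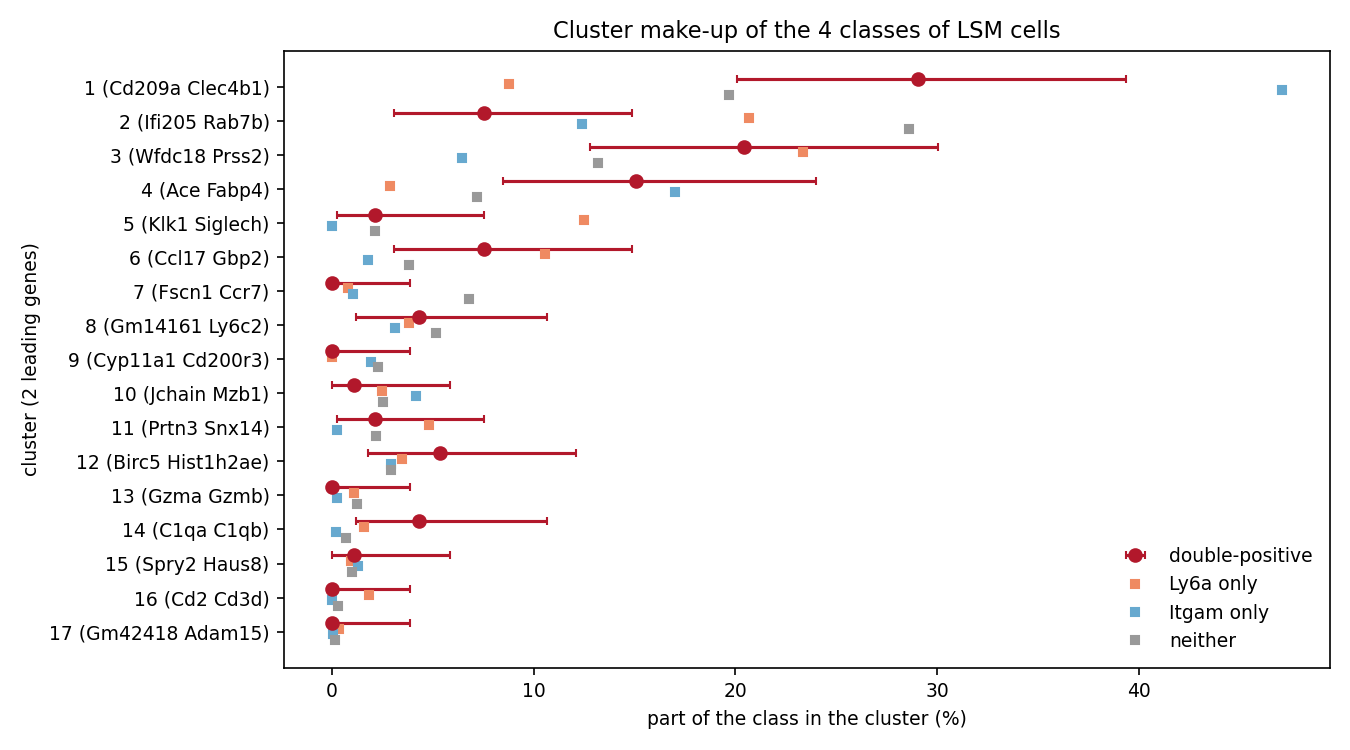
For each LSM cluster, labelled by its number and 2 leading genes, the percent of each class that lies in it: double-positive (red circle, exact 95% interval for counting error), and Ly6a only, Itgam only and neither (squares, weighted to the UMI bins of the double-positive cells). The double-positive cells lie between the Ly6a-only and Itgam-only values in clusters 1, 3 and 4, with 29.0%, 20.4% and 15.1%.

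Gene levels were compared as summed UMIs of the 93 cells over the sum expected from the rates of another class in the same UMI bins, and levels are given as CPM, the UMIs of a gene scaled to the UMI total of the class. A gene was called measured when at least 10 UMIs were observed or expected in the double-positive cells and was counted as higher or lower past 2-fold. The 3 comparisons share the same 93 cells. Named genes are those whose interval lay farthest from 1, 8 per direction and comparison, so their size is a description. Because summed UMIs can come from 1 or a few cells, the share of cells with a UMI is given beside them.

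Against Ly6a-only cells the double-positive cells were higher in genes of monocytes and macrophages and lower in genes of plasmacytoid DCs and plasma cells. Of 5489 genes, 215 (3.92%) were higher past 2-fold and 157 (2.86%) lower, and 89 were still higher when, for each gene, the double-positive cell with the most UMIs was left out. Here and below, leaving that cell out lowered the observed sum alone and left the expected sum unchanged, so part of the fall is built in. Lyz2, the lysozyme of myeloid cells, stood at 1955 CPM in double-positive cells, against 566 CPM in Ly6a-only cells, 3.45-fold higher (3.22 to 3.70), and was found in 69.9% against 34.0% of cells. Apoe, a lipid-carrying protein secreted by macrophages, stood at 959 against 162 CPM, but was found in 26.9% against 17.4% of cells. The complement subunit genes C1qa, C1qb and C1qc were 3.72-, 4.72- and 4.14-fold higher in sum and were found in 4.30%, 5.38% and 4.30% of double-positive cells, against 1.85%, 2.26% and 2.01% of Ly6a-only cells. Pglyrp1, a peptidoglycan recognition protein, was found in 22.6% against 9.15% of cells, and Msrb1, a methionine sulfoxide reductase, in 43.0% against 27.3%.

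These higher sums came from few clusters. All 91 C1qa UMIs, all 68 C1qc UMIs and 114 of 115 C1qb UMIs of the double-positive cells lay in the 4 cells of cluster 14, as did 425 of 556 Apoe UMIs. Of 75 Pglyrp1 UMIs 56, and of 121 Msrb1 UMIs 70, lay in the 14 cells of monocyte-like cluster 4. Matched on cluster as well as depth, Lyz2 was 0.933-fold and Pglyrp1 1.07-fold, while Apoe was 2.18-fold and C1qb 2.09-fold. Slpi, a secreted protease inhibitor, was 3.72-fold higher in sum, but 86 of its 98 UMIs lay in the 1 double-positive cell of plasma cell-like cluster 10, and without that cell it was 0.456-fold.

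Among the genes lower than in Ly6a-only cells, Ly6d, a Ly6 family gene of plasmacytoid DCs and lymphoid progenitors, stood at 67.3 against 668 CPM and was found in 7.53% against 18.9% of cells. Siglech, a receptor of plasmacytoid DCs, was found in 6.45% against 17.3%, and Cox6a2, another of their markers, in 10.8% against 20.7%. Irf8, a transcription factor of DC development, stood at 219 against 537 CPM and was found in 37.6% against 49.4%. The chemokine gene Ccl5 stood at 36.2 against 426 CPM, but was found in 9.68% against 12.2% of cells, so the sums differed more than the shares. Mzb1, a chaperone of antibody-secreting cells, was found in 2 of the 93 cells (2.15%), against 12.2%. The lysosomal genes Ctsl and Naaa were 0.382- and 0.425-fold. Matched on cluster, Ly6d remained at 0.163-fold, whereas Siglech was 1.13-fold, Ctsl 0.996-fold and Irf8 0.762-fold. The 1 double-positive cell of plasma cell-like cluster 10 held 15 of 31 Siglech UMIs and 16 of 42 Ctsl UMIs. It also held 18 of 39 Ly6d UMIs and 12 of 25 Cox6a2 UMIs. Without that cell and matched on depth alone, Siglech was 0.171-fold and Ctsl 0.237-fold. Their ratios matched on cluster thus leaned on 1 cell and were not recomputed without it.

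Against Itgam-only cells the double-positive cells were higher in interferon-stimulated and in progenitor genes. Of 5485 genes, 366 (6.67%) were higher past 2-fold and 168 (3.06%) lower, and 158 were still higher without the top cell of each gene; matched on cluster the numbers were 229 and 178. Isg15, a ubiquitin-like protein induced by interferons, stood at 345 CPM in double-positive cells, against 60.0 CPM in Itgam-only cells, 5.75-fold higher (4.49 to 7.41), and was found in 50.5% against 19.1% of cells. Cxcl9, a chemokine induced by interferon gamma, stood at 587 against 32.4 CPM and was found in 14.0% against 6.23% of cells; 261 of its 340 UMIs lay in the 7 double-positive cells of cluster 6, which Cxcl9 itself helped to lead. Ifi27, another interferon-induced gene, was found in 33.3% against 11.7% of cells, and Serpina3g, a serine protease inhibitor, in 18.3% against 5.89%.

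Cluster 3 gave most of the UMIs of several other genes higher than in Itgam-only cells. Ctla2a, a cysteine protease inhibitor, was found in 22.6% against 6.87% of cells, with 82 of 112 UMIs in the 19 double-positive cells of that cluster. Car2, a carbonic anhydrase, was found in 25.8% against 5.66%, with 48 of 59 UMIs there, and Il12a, the p35 subunit gene of interleukin-12, in 23.7% against 6.77%, with 37 of 63. Matched on cluster, Isg15 was 2.79-fold, Ifi27 2.54-fold, Ctla2a 2.82-fold and Car2 1.87-fold. Ctla2a and Serpina3g have close relatives in the genome, and how reads shared between such copies were assigned is not stated in the labels.

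Lower than in Itgam-only cells were Pmaip1, a pro-apoptotic gene, found in 16.1% against 40.2% of cells, and Myadm, a membrane protein of myeloid differentiation, in 22.6% against 47.3%. Tnni2 was found in 23.7% against 35.6%. Matched on cluster these 3 genes were 0.478-, 0.511- and 0.346-fold. Cytip, an adaptor that binds cytohesin, was found in 50.5% against 68.5% of cells at 0.503-fold. Vim (vimentin) and Cst3 (cystatin C) were 0.583- and 0.638-fold in sum, and were found in 86.0% and 100% of double-positive cells, against 89.6% and 98.8% of Itgam-only cells. Mzb1 was at 0.277-fold, with 48 of its 49 double-positive UMIs in 1 cell, and Ccl5 at 0.213-fold in sum, although it was found in more of the double-positive cells, 9.68% against 6.59%.

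Against cells with neither transcript, 255 of 5415 genes (4.71%) were higher past 2-fold and 128 (2.36%) lower, or 97 higher without the top cell of each gene. Scaled by trimmed means (TMM) the numbers were 200 and 159, so that 55.7% of the genes past 2-fold were higher in double-positive cells, against 66.6% at first; matched on cluster they were 154 and 113. Cxcl10, an interferon-induced chemokine, stood at 202 CPM in double-positive cells, against 35.2 CPM in cells with neither, and was found in 10.8% against 6.37% of cells. Mgl2, a C-type lectin of DCs and macrophages, stood at 173 against 39.3 CPM, with 95 of its 100 UMIs in cluster 1. The C1q genes, Apoe, Cxcl9 and Slpi were higher here too, by the same few cells as above, and matched on cluster C1qa was 0.817-fold, C1qb 0.987-fold and Apoe 1.22-fold. Lower were Ccl5 at 0.0403-fold, found in 9.68% against 14.5% of cells, Fabp5, a fatty acid binding protein, at 0.231-fold, Mzb1 at 0.287-fold, and Tnni2 at 0.331-fold. Matched on cluster Ccl5 was 0.508-fold, Fabp5 0.489-fold, Mzb1 0.434-fold and Tnni2 0.505-fold. Irf8, Cst3, Naaa and the lysosomal thioesterase gene Ppt1 lay between 0.424- and 0.490-fold, and matched on cluster between 0.813- and 0.983-fold.

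Across the 3 comparisons 24 higher and 24 lower pairs of gene and comparison were named, from 33 genes. The share of cells with a UMI ran the same way as the summed ratio in 24 of the higher and 21 of the lower pairs. Matched on cluster, 12 of the 24 higher pairs were still past 2-fold. Of the lower pairs 21 were past 2-fold at first, and 8 still were when matched on cluster. The pair of Mzb1 and Itgam-only cells had too few UMIs to be measured there.

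**Figure D4:**
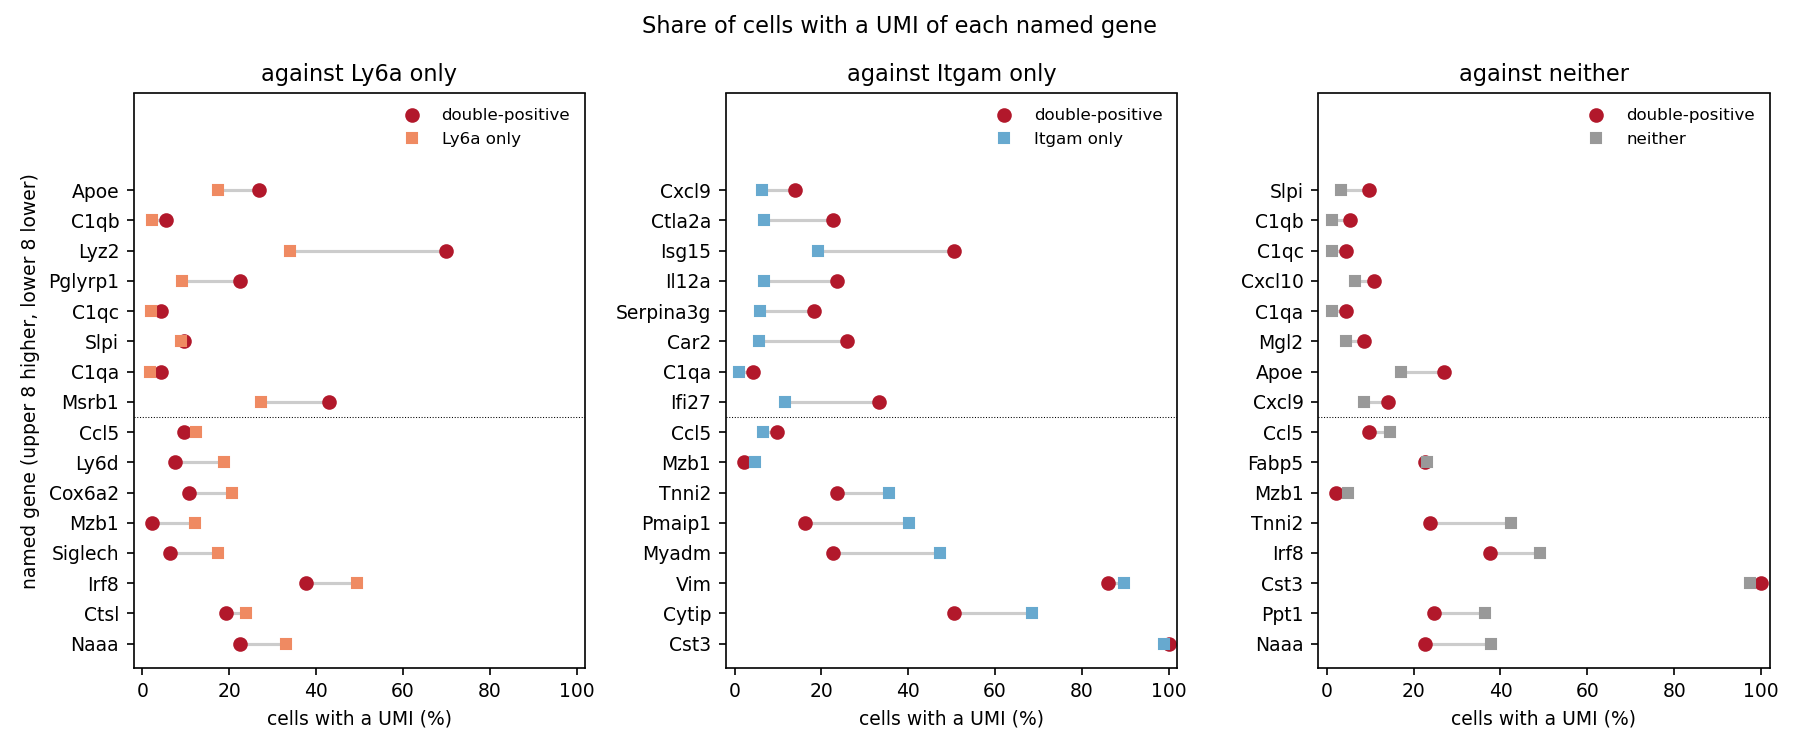
Percent of cells with a UMI of each named gene in double-positive cells (red circles) and in the class they are compared with (squares, weighted to the same UMI bins); the upper 8 genes of each panel were higher in summed UMIs and the lower 8 lower. Lyz2 (69.9% against 34.0%, left) and Isg15 (50.5% against 19.1%, middle) show the widest gaps among the higher genes, while the C1q genes stay under 6% of cells.

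Lists of genes of known function, chosen with earlier results of these data known, were read against the shares of all genes given above. Among the partners and ligands of Mac-1, 0 of 7 measured genes passed 2-fold in any comparison. Itgb2, the beta chain that Mac-1 needs, had a UMI in 45 of the 93 double-positive cells (48.4%, 37.9 to 59.0), against 36.8% of Ly6a-only, 54.4% of Itgam-only and 41.2% of neither cells of matched depth. The interval includes the Itgam-only and the neither value and lies above the Ly6a-only value. It overlaps the interval of the Ly6a-only share without weighting (31.9 to 38.5). Itgal, the alpha chain of the related integrin LFA-1, was found in 24.7% of double-positive cells, against 23.5%, 31.6% and 25.4% in the same order. Fermt3, which activates beta 2 integrins inside the cell, was found in 43.0%, against 39.6%, 45.2% and 40.6%. Itgad had 0 UMIs in the double-positive cells.

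Among the neighbours of Ly6a in the Ly6 family, 4 of 9 genes were measured. Ly6e, a Ly6 gene that is also induced by interferons, was found in 87 of the 93 cells (93.5%), against 89.1% of Ly6a-only, 80.7% of Itgam-only and 74.9% of neither cells. Ly6i was found in 19.4%, against 12.8%, 11.9% and 5.64%, and was past 2-fold against cells with neither (3.11-fold). Ly6c2, a marker of inflammatory monocytes and of some plasmacytoid DCs with the close copy Ly6c1, was found in 14.0%, against 24.5%, 16.1% and 12.3%; its UMIs were 2.41-fold higher than in Itgam-only cells, with more in fewer cells. Ly6g, Ly6f and Ly6h were at 0 in the double-positive cells.

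The 14 interferon-stimulated genes differed most against the classes without Ly6a. Against Itgam-only cells 10 of 13 measured genes were higher past 2-fold, against 6.67% of all genes, with a median log2 ratio of 2.16 beside 0.050 over all genes; 13 of the 13 were found in more double-positive cells, and 6 of the 10 stayed past 2-fold when matched on cluster, where 2 more had too few UMIs. Against cells with neither, 8 of 13 were higher past 2-fold, with a median of 1.47 beside 0.058, and 6 of the 8 stayed so when matched on cluster. Against Ly6a-only cells 0 of 14 passed 2-fold in either direction, with a median of −0.04 beside 0.0035. The list summed to 5930 CPM, against 5310 in Ly6a-only, 4737 in Itgam-only and 3344 in neither cells. These sums were 1.12-, 1.25- and 1.77-fold. Against the classes without Ly6a the sums thus differed less than the median gene. Irf7, a transcription factor of the interferon response, was found in 49.5% of double-positive cells, against 52.6% of Ly6a-only, 30.2% of Itgam-only and 36.1% of neither cells. Oas1a, an antiviral RNA sensor, was found in 29.0%, against 19.4%, 15.9% and 10.6%. For Irf7 the double-positive share was nearest to that of Ly6a-only cells, and for Oas1a it was above all 3.

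Monocyte genes were mainly higher against Ly6a-only cells, and stem and lymphoid progenitor genes against Itgam-only cells. Of 11 measured monocyte genes, 7 were higher past 2-fold against Ly6a-only cells (Fcgr1, Lyz2, Cx3cr1, Ace, Cd300e, Treml4 and Csf1r), beside 3.92% of all genes, and the list summed to 3193 against 1399 CPM. Matched on cluster 0 of the 7 stayed past 2-fold. Against Itgam-only cells 2 of 11 were higher (Fcgr1 and Ly6c2), and the list summed to 3193 against 3641 CPM. Cx3cr1, the fractalkine receptor of patrolling monocytes, was found in 32.3% of double-positive cells, against 6.54% of Ly6a-only, 36.9% of Itgam-only and 18.0% of neither cells. Fcgr1, the high-affinity IgG receptor, was past 2-fold in all 3 comparisons and was found in 15.1%, against 5.51%, 5.79% and 2.79%.

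Of the 4 measured stem and multipotent progenitor genes, 3 were higher past 2-fold against Itgam-only cells (Cd34, Hoxa9 and Meis1), the list summing to 248 against 91.4 CPM, and 0 against Ly6a-only cells (248 against 259 CPM). Cd34, a sialomucin of progenitors, was found in 25.8% of double-positive cells, against 26.1% of Ly6a-only, 10.6% of Itgam-only and 15.7% of neither cells. Of 6 lymphoid progenitor genes, Notch1, Satb1 and Dntt were higher past 2-fold against Itgam-only cells, and Il7r was lower against Ly6a-only cells. Dntt, the enzyme that adds bases at V(D)J joins, was found in 17.2%, against 17.6%, 3.40% and 7.00%. Matched on cluster Cd34 was 2.02-fold and Dntt 2.01-fold against Itgam-only cells, and the other 4 genes were under 2-fold.

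The other lists marked cell types that the gate could also hold. All 7 measured Kupffer cell and macrophage genes were higher past 2-fold against Ly6a-only cells and against cells with neither, and 6 of 7 against Itgam-only cells; the list summed to 628 CPM in double-positive cells, against 151, 141 and 107 CPM, and any of its genes was found in 13 of the 93 cells (14.0%), against 5.16%, 12.9% and 6.51% in the same order. Against Itgam-only cells the sums thus differed more than the shares of cells. Matched on cluster as well, 3, 3 and 1 of its genes stayed past 2-fold against Ly6a-only, Itgam-only and neither cells. Cluster 14 held only 1 Itgam-only cell, so within that cluster the Itgam-only comparison rested on at most that cell. Marco and Timd4 of that list were at 0. Plasmacytoid DC genes were lower past 2-fold in 4 of 8 against Ly6a-only cells (1139 against 2163 CPM), and in 0 of 6 against the other classes; matched on cluster Cox6a2 alone of the 4 stayed past 2-fold, and 2 had too few UMIs. Mature DC genes were lower in 6 of 7 against cells with neither (105 against 413 CPM), with Fscn1 and Cacnb3 at 0. Any gene of that list was found in 28.0% of double-positive cells, against 27.9% of cells with neither, and matched on cluster 0 of the 6 stayed past 2-fold, where 4 had too few UMIs. Derl3, Tnfrsf17 and Mzb1 of the plasma cell list were lower in all 3 comparisons; matched on cluster all 3 stayed so against Ly6a-only cells and 2 against cells with neither, and all 3 had too few UMIs against Itgam-only cells. Of this list, 1193 of the 1198 Jchain UMIs and 48 of the 49 Mzb1 UMIs lay in the 1 double-positive cell of cluster 10. Within that plasma cell-like cluster the comparison matched on cluster thus rested on that cell alone. In the conventional DC list Cd209a and Clec10a were higher and Irf8 lower against Ly6a-only cells, and 0 of these 3 stayed past 2-fold when matched on cluster.

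Defining markers of several other cell types were at 0, which in 93 cells does not exclude a low share. Shares of the other classes are given at matched depth, in the order Ly6a-only, Itgam-only and neither. Of the 8 neutrophil genes 7 were at 0 in the double-positive cells, among them S100a8 and S100a9, and all 16 Cxcr2 UMIs lay in 1 cell. Any neutrophil gene was found in 1.08% of double-positive cells, against 1.59%, 2.88% and 2.89% of the other classes. Alb and 2 other genes of the 6 hepatocyte genes were at 0. Any of that list was found in 2 of the 93 cells (2.15%), against 2.56%, 1.77% and 1.32%. Liver endothelial genes were found in 15 cells (16.1%, against 16.6%, 10.2% and 11.1%), with Stab2 and Lyve1 at 0. Erythroid genes were found in 1 cell (1.08%, against 3.86%, 0.926% and 1.42%). Megakaryocyte and platelet genes were found in 2 (2.15%, against 2.66%, 1.60% and 2.21%). Cd3d, Cd3e and Cd3g of the T cell list were at 0, with any of that list in 14 cells (15.1%, against 19.4%, 5.38% and 10.2%). Of the B cell genes 4 of 7, among them Ms4a1, were at 0, with any in 17 cells (18.3%, against 19.8%, 17.4% and 14.9%). Mast cell and basophil genes were found in 21 cells (22.6%, against 15.5%, 33.8% and 23.4%), with 6 of 8 at 0. Of the NK cell and ILC1 genes 6 of 9 were at 0, among them Ncr1, but any of the list was found in 61 of the 93 cells (65.6%), against 65.4% of Ly6a-only, 60.9% of Itgam-only and 59.5% of neither cells. Of the ILC2 and ILC precursor genes 3 of 7 were at 0, and any was found in 44 cells (47.3%), against 46.1%, 38.6% and 53.5%. Of the granulocyte-monocyte progenitor genes Elane, Ctsg and Ms4a3 were at 0, and any was found in 66 cells (71.0%), against 69.8%, 71.8% and 68.0%. Within these 3 lists Klrd1, a lectin-like receptor, was found in 51 cells, the transcriptional inhibitor gene Id2 in 40, and the chaperone gene Calr (calreticulin) in 64.

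Antigen presentation, cell division and early-response genes differed less. MHC class II genes passed 2-fold in 0 of 7 in each comparison and summed to 28197 CPM, against 24944 in Ly6a-only, 31751 in Itgam-only and 29226 in neither cells. Of 12 proliferation genes, Ube2c was higher past 2-fold against Ly6a-only and Itgam-only cells, and Nusap1, Ube2c and Mki67 against cells with neither; the list summed to 985 CPM, against 955, 631 and 676. Immediate early genes, which tissue dissociation can induce, passed 2-fold in 0 of 10 in each comparison and summed to 7041 CPM, against 5881, 7169 and 6353.

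**Figure D5:**
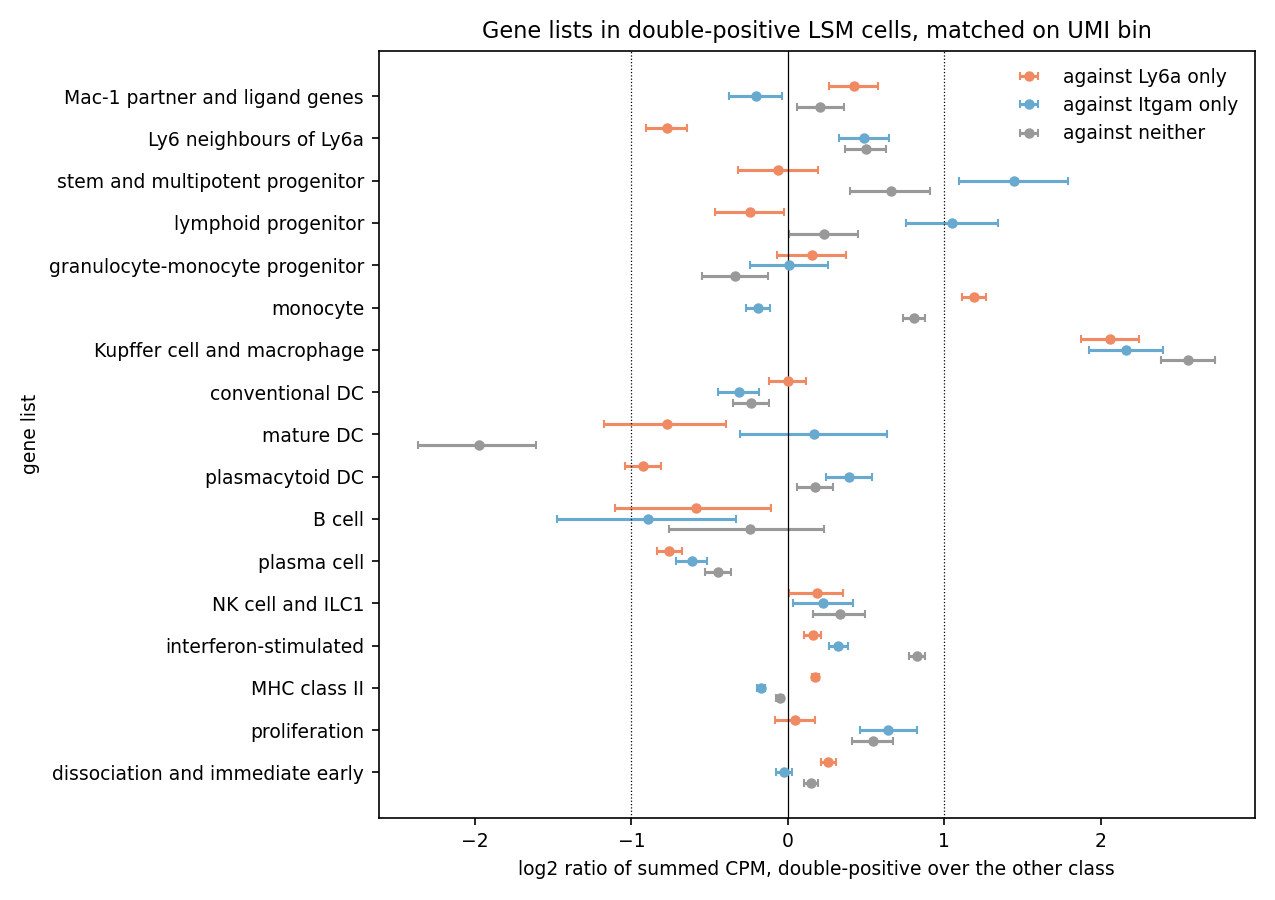
Log2 ratio of the summed CPM of each gene list, double-positive over Ly6a-only (orange), Itgam-only (blue) and neither (grey) cells in the same UMI bins, with 95% intervals for counting error; dotted lines mark 2-fold. Monocyte genes lie to the right against Ly6a-only cells (3193 against 1399 CPM) and stem and lymphoid progenitor genes to the right against Itgam-only cells (248 against 91.4 CPM for the stem list).

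Doublet scores were set beside these results, since 2 cells in 1 droplet can bring both transcripts together. Predicted doublets, the barcodes with the highest Scrublet scores at the expected rate, were 7 of the 93 double-positive cells (7.53%, 3.08 to 14.9). They were 3.34% of Ly6a-only, 4.23% of Itgam-only and 2.83% of neither cells of matched depth. The interval includes the Ly6a-only and the Itgam-only value and lies above the neither value. The median scores were 0.0184, against 0.0153, 0.0153 and 0.0139. Of the 7, clusters 1 and 2 held 2 each and clusters 3, 6 and 12 held 1 each. With all predicted doublets removed the double-positive share was 2.88% of LSM cells, and the ratios of observed to expected cells were 0.687 within UMI bins and 0.901 within bins and clusters. Genes past 2-fold were then 220 higher and 150 lower against Ly6a-only cells, 318 and 139 against Itgam-only cells, and 245 and 119 against cells with neither. Of the 48 named pairs of gene and comparison, 45 stayed within their counting interval and 3 moved: Ccl5 against Itgam-only cells was at a log2 ratio of −1.27, Cst3 against Itgam-only cells at −0.57, and Mgl2 against cells with neither at 2.70.

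Within the 3 clusters that held most of them, few listed genes differed between the double-positive cells and the other cells by more than their intervals. In cluster 1, 27 double-positive cells (median 6628 UMIs) were set against 562 others (median 5740.5). Isg15 was found in 19 of the 27 (70.4%, 49.8 to 86.2), against 30.6% of the others at matched depth, and Fcgr1 in 33.3% against 7.99%. Ly6e was found in 96.3% against 77.4%, Oas1a in 48.1% against 26.1%, and Id2 in 59.3% against 31.4%. Junb, an immediate early factor, was found in 88.9% against 98.6%. These were the 5 higher and 1 lower of 147 listed genes whose intervals were apart from those of the other cells, where 1.08% of all 12265 genes detected in the cluster were higher and 0.0978% lower by the same rule. Isg15 was found in 58.0% of the Ly6a-only, 20.7% of the Itgam-only and 24.5% of the neither cells of cluster 1. Fcgr1 was found in 10.1%, 11.3% and 5.25% of them, all below the double-positive share. Cd209a, which leads the cluster, was found in 92.6% of its double-positive cells and 86.3% of the others.

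In cluster 3, 19 double-positive cells (median 5130 UMIs) were set against 490 others (median 4644). The intervals of the progenitor genes overlapped: Cd34 was found in 73.7% against 68.4%, Flt3 in 57.9% against 55.4%, Dntt in 47.4% against 38.9%, and Kit in 47.4% against 40.1%. Lyz2 was found in 7 of the 19 (36.8%, 16.3 to 61.6), against 12.3% of the others, and in 12.3% of Ly6a-only, 7.69% of Itgam-only and 13.04% of neither cells of this cluster. Fermt3 was found in 68.4% against 39.7%, and Clec4a4, a C-type lectin of DCs, in 2 of 19 against 0 of 490. These were 3 of 164 listed genes with intervals apart, all higher, beside 0.672% of all 12947 genes higher and 0.0309% lower. In cluster 4, 14 double-positive cells (median 2714.5 UMIs) were set against 313 others (median 2338), and 0 of 119 listed genes had intervals apart, beside 0.522% of all 10532 genes higher and 0% lower. Ace was found in 78.6% against 69.4%, Treml4 in 71.4% against 64.5%, Cd300e in 71.4% against 58.8%, and Isg15 in 0 of 14 against 6.19%. With 14 to 27 cells a difference of moderate size was not detectable at this depth.

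The gate on Sca-1 and Mac-1 was compared with the CD122+ CD49a+ gate at equal depth. The LSM library was deeper, with a median of 5109 UMIs in 3065 kept cells, against 1464 in 1248 CD122+ CD49a+ cells. As counted, 3.03% of LSM cells and 6 CD122+ CD49a+ cells (0.481%, 0.177 to 1.04) were double-positive. Thinned to 1500 UMIs per cell, 16 of 2966 LSM cells (0.539%, 0.309 to 0.875) and 5 of 600 CD122+ CD49a+ cells (0.833%, 0.271 to 1.93) were double-positive, with 99 and 648 shallower cells left out. Thinned to 1000 UMIs, these were 9 of 3048 (0.295%) and 2 of 1036 (0.193%). Each thinning was a single random draw, and the intervals do not cover the spread between draws. With predicted doublets removed, thinning to 1500 UMIs gave 20 LSM cells (0.693%) and 3 CD122+ CD49a+ cells (0.512%). The order of the 2 gates thus turned round between these settings, and the intervals overlapped. A difference in the double-positive share between the gates was not detectable at equal depth.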

How the data were processed

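The authors deposited UMI counts per gene and cell barcode, raw and not normalised, written by software version 3.0.1, as the matrix headers say. The submitters' processing notes name STAR, Seurat 2.3.0 and the build GRCm38 with no role, and how the deposited barcodes were chosen is not stated there. Each matrix lists 27998 genes. The LSM matrix had 3133 barcodes and 16226070 UMIs, of which 59 barcodes had too few genes and 25 too many mitochondrial UMIs; the CD122+ CD49a+ matrix had 1655 barcodes and 2632303 UMIs. The members and the 25 gene lists were chosen with earlier results of these data known.

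For clustering, cells were scaled to 10000 counts and logged, and 2000 variable genes without Ly6a and Itgam were reduced to 20 components with 15 neighbours and Leiden resolution 0.6 (scanpy 1.11.5, leidenalg 0.10.2). A cluster was called like a cell type from at least 3 raised markers (a UMI in 10% of its cells and 2-fold over other cells, with a pseudocount of 5 CPM), unless its leading genes went against it. Leading genes had a UMI in 25% or more of the cells. The automatic threshold of Scrublet marked 0.351% of barcodes, so the 79 barcodes with the highest scores, the number expected, were marked instead and kept.

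Ratios are of summed UMIs to the sums expected from the other class in bins of total UMIs with edges at 2000, 4000, 6000, 8000 and 12000. Matched on cluster as well, double-positive cells in a cluster and bin without a cell of the other class were left out. Against Itgam-only cells 5035 genes were then measured, against 5485 before. Intervals of shares are exact (Clopper-Pearson), and 3 counts set the limit beside a 0. Depth limits each share. Named genes had at least 100 CPM in the higher class and at least 10 UMIs. Genes of mitochondria, ribosomal proteins and immune receptor segments and numbered predicted genes were not ranked. Alternatives were other bins, clusterings, filters, scalings and thinning. The ratio with its interval and the expected number of double-positive cells were tested on simulated data. The simulated UMI sums held counting error only, without the uneven spread over cells seen here. Clustering, doublet marking and thinning were not tested in this way.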

Additional observations from a re-analysis of the deposited data

Results flagged for a closer look

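The features table lists Itgam under 2 identifiers. The second identifier, which GENCODE calls Gm49368, spans chromosome 7 from 128062683 to 128128160 on the same strand and overlaps Itgam. It was flagged because its UMIs lie outside the main measurement: 31 LSM cells had at least 1, 34 UMIs in all, against 14 cells of the CD122+ CD49a+ library. Of the 31 cells 1 was double-positive by Itgam itself, and 3 were Ly6a-only cells that would join the double-positive cells if both identifiers were counted. With its UMIs added the double-positive share was 3.13% of LSM cells, against 3.03% without.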

How the results depend on the processing

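With 1 library per gate no replicate could be left out. For the same reason no paired analysis was possible. The observed number of double-positive cells was below the expected one within UMI bins, and within bins and clusters, under each alternative tried, with an interval below 1 for the second at Leiden resolution 0.3 only (0.814). Requiring at least 2 UMIs of each transcript left 8 cells (0.261%), with ratios of 0.442 within bins and 0.598 within bins and clusters; cluster 1 then held 12.5% of them and cluster 4 held 0%. Thinned cells had equal depth, so their ratios used no UMI bins. Thinning to 1500 UMIs gave a share of 0.539% and a ratio of 0.553, and thinning to 3000 gave a share of 1.33%. Thinning removes molecules by construction. Between the gates, thinning to 1000 UMIs gave 0.295% in LSM and 0.193% in CD122+ CD49a+ cells, and without thinning the LSM share was 3.03%. Removing predicted doublets left a share of 2.88%, and adding the UMIs of the second Itgam identifier gave 3.13%. Cluster 1 held 37.6% of the double-positive cells at Leiden resolutions of 0.3 and 1 and when Ly6a and Itgam entered the clustering.

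Numbers of genes past 2-fold depended on the minimum. With at least 30 UMIs, 50 genes were higher and 27 lower against Ly6a-only cells, 78 and 21 against Itgam-only cells, and 61 and 30 against cells with neither. With no minimum beyond 1 UMI these were 1308 and 1331, 2124 and 1189, and 1594 and 1078. With at least 2 UMIs of each transcript they were 53 and 50, 83 and 64, and 56 and 41, where fewer cells left fewer genes to test. Without the cell with the most UMIs of each gene, chosen after seeing the data, 89, 158 and 97 genes were higher. The expected sums were not lowered with it, so part of this fall is built in. Matched on cluster, 229 genes were higher against Itgam-only cells and 154 against cells with neither; lists with a summed interval above 1 against Itgam-only cells were 5, and below 1 were 4, 0 and 1 in the 3 comparisons, against 10, 9, 9 and 7 before. The cause was not tested. TMM scaling moved log2 ratios by 0.018, 0.10 and 0.11. Of 374 recomputed ratios of named genes, 241 were within the counting interval, 127 moved and 6 reversed. On the log2 scale and matched on cluster, Lyz2 was at −0.10 and Siglech at 0.18 against Ly6a-only cells, Ccl5 at 0.15 against Itgam-only cells, and C1qb at −0.018 and C1qa at −0.29 against cells with neither. Of the 31 Siglech UMIs, 15 lay in 1 double-positive cell. Slpi was at −1.13 against Ly6a-only cells without its highest cell. Depth limits all shares here.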
